A study of Mus musculus with 10 samples.

Results

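The genes described here encode 10 transporters that carry the products of protein digestion across the absorptive cells of the small intestine. They are Slc15a1, Slc6a19, Slc6a20a, Slc6a14, Slc7a7, Slc7a8, Slc7a9, Slc3a1, Slc1a1 and Slc36a1, listed by name with earlier results of these data known. Each had 1 probe set that the platform annotation gives to that gene alone, so all 10 were measured, out of 22180 genes in all. They were read on Affymetrix whole-transcript arrays of jejunum from female mice aged 10 to 12 weeks, with 5 knockout and 5 control samples and 1 array per sample. Knockout mice were Pcyt1aLoxP/LoxP;VilCreERT2, in which tamoxifen switches on a Cre recombinase driven by the promoter of villin, a gene of the gut epithelium. Control mice were Pcyt1aLoxP/LoxP, with no Cre named in their genotype. Both groups received tamoxifen for 5 days, a high fat diet for 4 days and an overnight fast before 3 cm of mid small intestine was frozen. The study asks what the jejunum does when its epithelium cannot make phosphatidylcholine through the enzyme that Pcyt1a encodes.

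Dietary protein reaches the intestinal wall as short peptides and free amino acids. Peptides enter the enterocyte with protons, and free amino acids enter through a set of brush border carriers that divide the work by charge, most of them driven by sodium. Exchangers and uniporters of the basolateral membrane then pass amino acids on to the blood. Several of these carriers work only as pairs, in which a heavy chain brings a light chain to the membrane.

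Pcyt1a had a mean log2 intensity of 7.46 ± 0.25 on the knockout arrays, against 9.39 ± 0.17 on the control arrays (SD, n = 5 each), and the groups did not overlap (limma adjusted p = 9.577e-05). Whether its probe set lies in the deleted part is not given in the sources used here. The descriptive labels of the controls also speak of intestine without phosphatidylcholine synthesis, against their titles and genotype, and the series text speaks of re-feeding where the sample labels speak of fasting. Nothing in the labels says that samples came from separate mice, so the tests measure the spread between these samples. Enterocyte genes were high on every array, with Alpi at 12.66 to 13.04 in knockouts and 12.73 to 13.12 in controls, and Vil1 at 12.27 to 12.40 in knockouts and 12.19 to 12.45 in controls. Lct, of the same list of 16, read 11.78 to 12.49 in knockouts and 12.43 to 12.83 in controls (limma adjusted p = 0.182). Genes of the lower small intestine were uneven within both groups. Fabp6, which encodes an ileal bile acid binding protein, read 4.41 to 7.48 in knockouts and 4.60 to 5.73 in controls, with its highest array knockout 3. The ileal bile acid transporter gene Slc10a2 read 4.94 to 5.92 in knockouts and 4.22 to 7.27 in controls, and the gut hormone gene Nts 7.19 to 8.85 in knockouts and 7.57 to 10.13 in controls. The other 5 genes of that list (Slc10a2, Nts, Pyy, Gcg and Osr2) all had their highest array among controls 9 and 10. The score of 10 smooth muscle genes, their mean log2 intensity centred over the arrays, ran between -0.61 and 0.76 in knockouts and between -1.02 and 2.64 in controls. Scored alike, enterocyte genes ran between -0.14 and 0.12 in knockouts and between -0.04 and 0.17 in controls. Endothelial genes ran between -0.09 and 0.76, against -1.03 and 0.08 in controls. For macrophage genes it was -0.10 to 0.66, against -0.46 to 0.12, and for goblet cell genes -0.37 to 0.04, against -0.01 to 0.26. In whole tissue, fewer cells of a type and less RNA per cell cannot be told apart.

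None of the 10 transporters differed between knockout and control jejunum past the test, which called 0 of 10 in either direction, against 0.0271% of all genes. The test was limma over all 22180 genes, called at a Benjamini-Hochberg adjusted p under 0.05, and adjusted p-values of the members ran between 0.340 and 0.875. At an unadjusted p under 0.05 there was 1 member, Slc36a1, against 13.9% of all genes. Knockout and control values overlapped for all 10 members, whereas 2.6% of all genes had groups that did not overlap. The log2 fold change, knockout minus control, was below 0 for 9 members and above 0 for Slc1a1, with a median of -0.09, against -0.01 over all genes. This sign count mixes genes that moved together from array to array, so it does not hold 10 separate observations. It also rests on controls 9 and 10: without them 4 members were below 0 and 6 above, with Slc15a1 at 0.09, Slc3a1 at 0.11, Slc6a19 at 0.05, Slc7a9 at 0.07 and Slc7a7 at 0.005, and still 0 called.

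**Figure D1:**
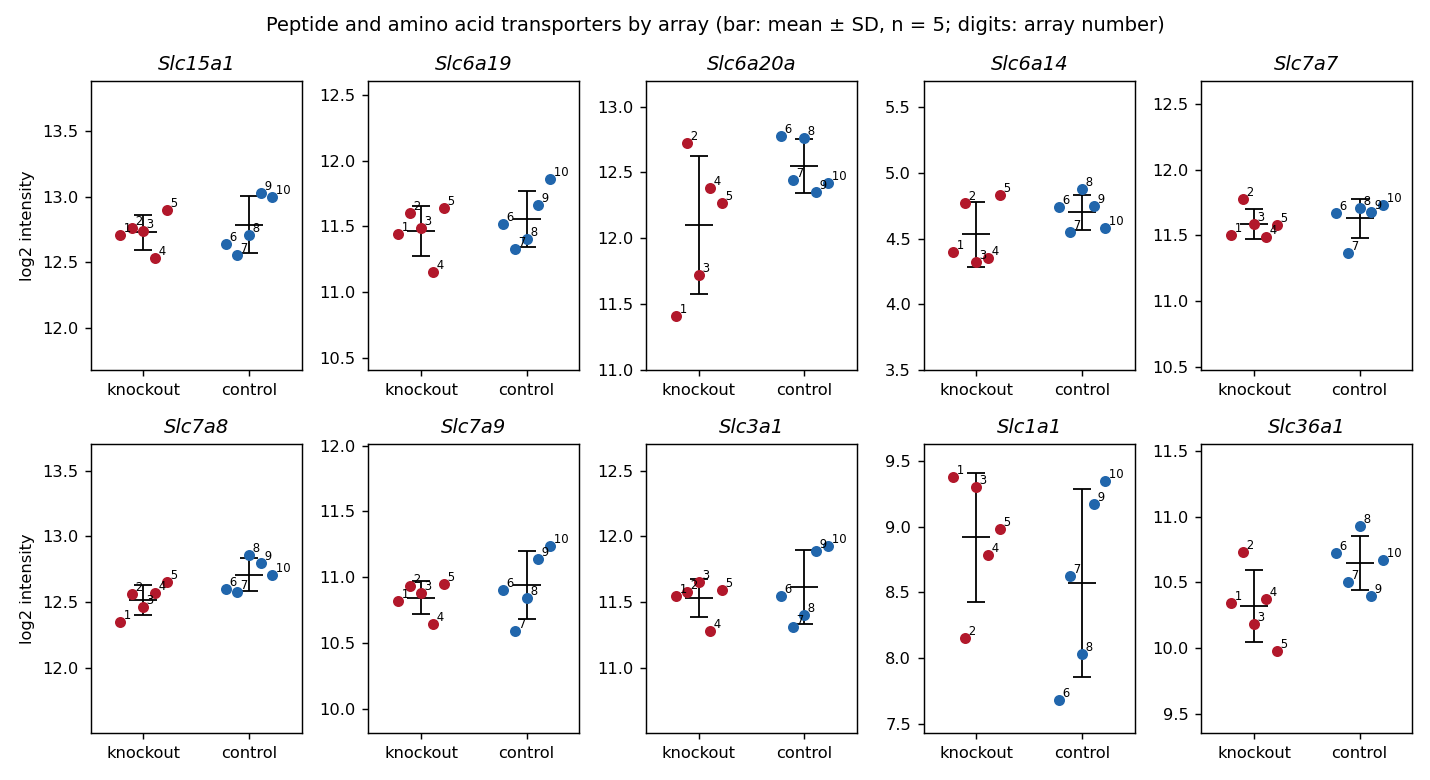
Log2 intensity of each transporter on each array, knockout left and control right, with the mean and SD of 5 arrays as a bar and the array number beside each point. Every panel spans the same number of log2 units. Slc1a1 and Slc6a20a spread most between arrays, and the groups overlap in all 10 panels.

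Slc15a1 encodes PEPT1, the proton-coupled carrier of short peptides in the brush border. Its log2 intensity was 12.71, 12.76, 12.74, 12.53 and 12.90 on knockouts 1 to 5, against 12.64, 12.56, 12.71, 13.03 and 13.00 on controls 6 to 10. Controls 9 and 10 lay above every knockout, and controls 6 and 7 lay below 4 of the 5 knockouts. Its log2 fold change of -0.06 (SE 0.11, 95% interval -0.31 to 0.19) puts knockouts at 95.9% of controls, with an interval of 80.8% to 113.9%.

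Slc6a19 encodes the main sodium-driven carrier of neutral amino acids in the brush border, which is lost in Hartnup disorder in people. It read 11.44, 11.60, 11.49, 11.15 and 11.64 on the knockouts, against 11.52, 11.33, 11.40, 11.66 and 11.86 on the controls. Controls 9 and 10 lay above every knockout and knockout 4 below every control, with the other 7 arrays interleaved. Its log2 fold change was -0.09 (SE 0.12, 95% interval -0.36 to 0.18).

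Slc7a9 and Slc3a1 encode the light and the heavy chain of the brush border exchanger for cystine and cationic amino acids, and defects in either cause cystinuria. Slc7a9 read 10.82, 10.93, 10.88, 10.64 and 10.95 on the knockouts, against 10.90, 10.59, 10.84, 11.14 and 11.24 on the controls. For Slc3a1 the values were 11.55, 11.58, 11.65, 11.28 and 11.59 on the knockouts, against 11.55, 11.31, 11.40, 11.89 and 11.93 on the controls. Controls 9 and 10 were the highest arrays for both chains, and knockout 4 and control 7 the lowest. The log2 fold changes were -0.10 (SE 0.12, 95% interval -0.37 to 0.17) for Slc7a9 and -0.09 (SE 0.13, 95% interval -0.38 to 0.205) for Slc3a1. Knockout levels were 93.4% and 94.2% of control levels.

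Slc7a7 and Slc7a8 encode basolateral light chains, both of which pair with the heavy chain encoded by Slc3a2. The Slc7a7 product exports cationic amino acids in exchange for sodium and neutral ones, and the Slc7a8 product exchanges neutral amino acids. Slc7a7 read 11.50, 11.78, 11.59, 11.49 and 11.58 on the knockouts, against 11.67, 11.37, 11.71, 11.68 and 11.73 on the controls. Control 7 was the lowest array and the other 4 controls lay within 0.06 of each other. With a log2 fold change of -0.04 (SE 0.10, 95% interval -0.25 to 0.17), Slc7a7 had 97.0% of the control level in knockouts, the closest to equality of the 10.

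Slc7a8 read 12.35, 12.56, 12.46, 12.57 and 12.65 on the knockouts, against 12.60, 12.58, 12.86, 12.80 and 12.71 on the controls. Controls 8, 9 and 10 lay above every knockout, and 4 of the 5 knockouts lay below every control, the exception being knockout 5. The log2 fold change was -0.19 (SE 0.09, 95% interval -0.39 to 0.005, limma adjusted p = 0.373). Taken as a single value, the two-sided exact permutation test over the 252 splits of the arrays gave p = 0.0397, which became 0.318 after adjustment over the 10 members.

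Slc36a1 encodes PAT1, a proton-coupled carrier of small neutral amino acids such as glycine and proline. Its values were 10.34, 10.73, 10.18, 10.37 and 9.98 on the knockouts, against 10.72, 10.50, 10.93, 10.40 and 10.67 on the controls. All knockouts but knockout 2 lay below every control. A log2 fold change of -0.32 (SE 0.14, 95% interval -0.64 to -0.01) had an unadjusted p of 0.0423, a limma adjusted p of 0.340 and an exact permutation p of 0.0794. Knockouts stood at 79.9% of controls, with an interval of 64.4% to 99.1%.

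Slc6a20a encodes the sodium- and chloride-driven carrier of proline and other imino acids. It read 11.41, 12.72, 11.72, 12.38 and 12.27 on the knockouts, against 12.78, 12.44, 12.76, 12.35 and 12.42 on the controls. Knockouts 1, 3 and 5 lay below every control, knockouts 1 and 3 by the most, while knockouts 2 and 4 lay within the control range. The SD was 0.53 in knockouts and 0.20 in controls (n = 5 each). Knockout minus control was -0.45 on the log2 scale (SE 0.22, 95% interval -0.92 to 0.02, limma adjusted p = 0.385), and the exact permutation p was 0.0952. It was -0.28 without knockout 1, and -0.605 without knockout 2. Slc6a20b, a closely related gene, read 5.34, 6.71, 5.45, 6.39 and 6.33 on the knockouts, against 7.27, 5.71, 6.96, 6.24 and 6.35 on the controls. It was also lowest on knockouts 1 and 3, and whether the probe sets of the pair read each other's transcript was not tested.

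Slc1a1 encodes the sodium-driven carrier of the acidic amino acids glutamate and aspartate. Its values were 9.38, 8.15, 9.30, 8.78 and 8.98 on the knockouts, against 7.68, 8.62, 8.03, 9.17 and 9.35 on the controls. The arrays covered 1.70 log2 units, the widest range of the 10 members, and both groups held low and high arrays. Knockout minus control was 0.35 on the log2 scale (SE 0.33, 95% interval -0.36 to 1.06, limma adjusted p = 0.676). That interval runs between 77.8% and 208.2% of the control mean. Single arrays moved the difference by over 1.5 times: it was 0.13 without control 6, 0.21 without control 8, 0.54 without control 10 and 0.54 without knockout 2.

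Slc6a14 encodes a sodium- and chloride-driven carrier of both neutral and cationic amino acids, known in the gut mainly from its distal parts. It read 4.40, 4.77, 4.32, 4.35 and 4.83 on the knockouts, against 4.74, 4.55, 4.88, 4.75 and 4.58 on the controls. Array medians over all genes were 5.77 to 5.89, and the table holds no detection values, so whether this probe set rose above background was not tested. The log2 fold change was -0.17 (SE 0.12, 95% interval -0.43 to 0.10).

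**Figure D2:**
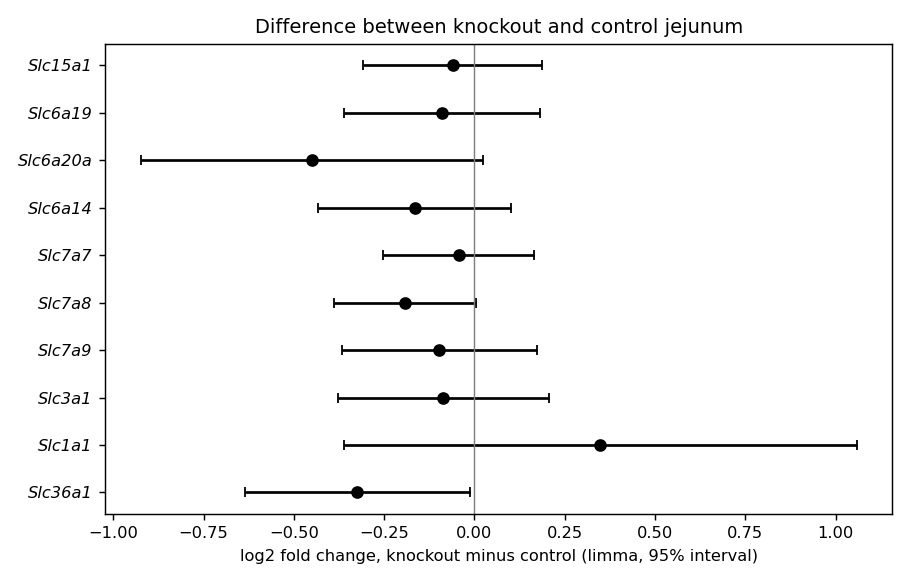
Log2 fold change, knockout minus control, for each transporter (limma, point) with its 95% interval (bar). The interval of Slc36a1 ends at -0.01 and that of Slc7a8 at 0.005, and the Slc1a1 interval, from -0.36 to 1.06, is the widest.

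The values of 4 transporters moved together from array to array. Over the 10 arrays, 7 of the 45 member pairs had a Pearson r and a Spearman rho that both passed a permutation test adjusted over the 45. Of these pairs, 6 were positive and joined Slc15a1, Slc6a19, Slc7a9 and Slc3a1 in every combination. By Pearson r the highest was the exchanger pair Slc7a9 and Slc3a1, which had the lowest rho of the 6, with r = 0.956 (permutation p = 2.4e-04, adjusted 0.00252) and rho = 0.888 (permutation p = 0.00113, adjusted 0.00726). Without control 7 and control 10, the arrays farthest from the median of Slc7a9, r was 0.930, and after centring each group on its mean it was 0.955. Slc6a19 and Slc7a9 had the highest rho of the 6, with r = 0.932 and rho = 0.976 (permutation p = 1.5e-04 and 7e-05, adjusted 0.00252 and 0.00315), and r = 0.897 without knockout 4 and control 10. Slc15a1 had r = 0.890 with Slc6a19, r = 0.931 with Slc7a9 and r = 0.917 with Slc3a1, where the permutation p-values were 2.5e-04, 2.8e-04 and 4.8e-04 (adjusted 0.00252, 0.00252 and 0.00360). Their rho values were 0.912, 0.900 and 0.924 (permutation p = 4.7e-04, 8.2e-04 and 3.1e-04, adjusted 0.00529, 0.00726 and 0.00529). Without controls 9 and 10, those r values were 0.862, 0.846 and 0.773. Slc6a19 and Slc3a1 had r = 0.906 and rho = 0.918 (permutation p = 1.4e-04 and 3.9e-04, adjusted 0.00252 and 0.00529), and r = 0.822 without knockout 4 and control 10.

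The remaining pair that passed ran the other way. Slc6a20a was high where Slc1a1 was low, with r = -0.781 (permutation p = 0.0074, adjusted 0.0476) and rho = -0.867 (permutation p = 0.00228, adjusted 0.0128). Without knockouts 1 and 3, r was -0.900, and with each group centred on its mean it was -0.769. Control 6, control 8 and knockout 2 had the lowest Slc1a1 and the highest Slc6a20a, so both groups contributed to the pattern.

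**Figure D3:**
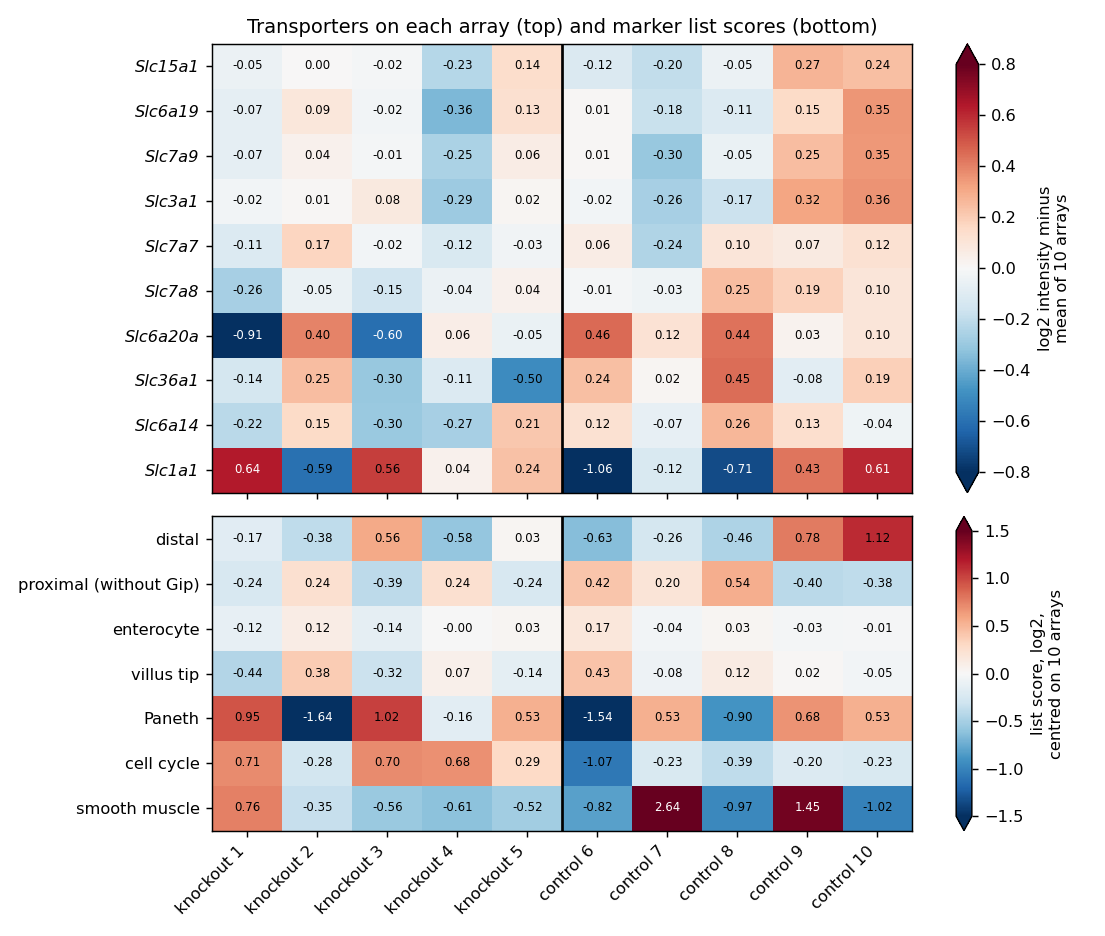
Top, log2 intensity of each transporter minus its mean over the 10 arrays. Bottom, scores of marker lists (mean log2 intensity of the list, centred on the 10 arrays), with 5 knockout arrays left of the line and 5 control arrays right of it. Controls 9 and 10 are red for Slc15a1, Slc6a19, Slc7a9 and Slc3a1 and have the highest distal scores, 0.78 and 1.12.

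Scores of marker genes for position along the gut and for tissue makeup varied among the same arrays. The distal score, from 6 genes of the lower small intestine, ran between -0.58 and 0.56 in knockouts and between -0.63 and 1.12 in controls. Its 2 highest arrays were controls 9 and 10, those highest in Slc15a1, Slc7a9 and Slc3a1. Knockout 4, among the lowest arrays for these genes, had the second lowest distal score, while control 7, also among the lowest, was at -0.26. Control 6 had the lowest distal score, -0.63, yet was not the lowest array for any of these genes. It read 12.64 for Slc15a1, 10.90 for Slc7a9 and 11.55 for Slc3a1. The correlation of the distal score with Slc3a1 was r = 0.861 and rho = 0.827 (permutation p = 0.00125 and 0.00469, adjusted 0.0169 and 0.0522 over 60 relations of members with marker scores). It was r = 0.813 and rho = 0.790 with Slc15a1 (permutation p = 0.00511 and 0.0087, adjusted 0.0383 and 0.0522). Without controls 9 and 10 these r values were 0.576 and 0.501, so the relations were weaker without those samples. No test was run on the remaining arrays.

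Slc6a20a followed the villus tip score, from 7 genes of the upper villus, with r = 0.904 and rho = 0.879 (permutation p = 4.5e-04 and 0.00162, adjusted 0.0122 and 0.0486). This was the 1 relation of the 60 that passed on both measures, and r was 0.849 without knockouts 1 and 3. Slc1a1 went with the Paneth cell score at r = 0.923 and rho = 0.855 (permutation p = 6.1e-04 and 0.00298, adjusted 0.0122 and 0.0522). Against the proximal score, which left out Gip, it had r = -0.910 and rho = -0.806 (permutation p = 3.2e-04 and 0.00683, adjusted 0.0122 and 0.0522). Without controls 6 and 8, these r values were 0.873 and -0.867. With the enterocyte and villus tip scores, Slc1a1 had r = -0.844 and -0.848 (permutation p = 0.00146 and 0.00169, both adjusted 0.0169). Slc6a20a had r = 0.858 and -0.776 with the enterocyte and Paneth scores (permutation p = 0.0025 and 0.0105, adjusted 0.0214 and 0.069). Its rho with the Paneth score was -0.903 (permutation p = 0.00093, adjusted 0.0486). None of these relations passed on both measures. The Paneth score, from 8 measured genes of 11 listed, ran between -1.64 and 1.02 in knockouts and between -1.54 and 0.68 in controls. The villus tip score ran between -0.44 and 0.38 in knockouts and between -0.08 and 0.43 in controls. The part of position or makeup in these values was not tested.

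The promoters of these 6 genes are shown because their transcripts moved together or in opposition across arrays. Each window holds 250 bases before the RefSeq start of the gene and 50 bases after it, in build GRCm38.p6, read 5′ to 3′ on the strand of the gene, and all 10 members had a window. Capitals mark matches, on either strand, to 5 short motifs. Factors of the HNF1 family, which act in gut, liver and kidney epithelium, are searched by GTTAAT, a part of their full site. The nuclear receptor HNF4, abundant in enterocytes, is searched by CAAAGTCCA. For the CDX homeobox factors, which give the intestinal epithelium its identity, the letters are TTTATNG. Members of the GATA family, which help to set proximal against distal identity in the small intestine, are searched by AGATAA. The GC box, a common element of promoters in general, is searched by GGGCGG.
Slc15a1, chr14:121505205-121505504, minus strand: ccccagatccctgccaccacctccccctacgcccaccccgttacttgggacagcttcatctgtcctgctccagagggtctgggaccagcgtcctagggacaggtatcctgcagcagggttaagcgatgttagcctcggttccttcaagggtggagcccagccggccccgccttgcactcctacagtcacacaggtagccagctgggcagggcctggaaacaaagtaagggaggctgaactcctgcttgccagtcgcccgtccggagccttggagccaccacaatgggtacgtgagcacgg
Slc6a19, chr13:73692587-73692886, minus strand: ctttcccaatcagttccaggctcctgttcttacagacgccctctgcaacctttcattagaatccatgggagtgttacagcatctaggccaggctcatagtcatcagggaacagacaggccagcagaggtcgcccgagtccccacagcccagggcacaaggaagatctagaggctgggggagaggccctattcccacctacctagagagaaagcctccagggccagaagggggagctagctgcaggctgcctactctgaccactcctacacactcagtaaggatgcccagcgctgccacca
Slc7a9, chr7:35448842-35449141, plus strand: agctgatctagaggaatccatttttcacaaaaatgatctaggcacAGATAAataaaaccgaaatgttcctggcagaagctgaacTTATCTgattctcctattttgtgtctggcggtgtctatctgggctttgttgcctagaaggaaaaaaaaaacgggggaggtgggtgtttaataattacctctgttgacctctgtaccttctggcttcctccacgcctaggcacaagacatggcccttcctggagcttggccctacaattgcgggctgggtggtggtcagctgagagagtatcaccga
Slc3a1, chr17:85028097-85028396, plus strand: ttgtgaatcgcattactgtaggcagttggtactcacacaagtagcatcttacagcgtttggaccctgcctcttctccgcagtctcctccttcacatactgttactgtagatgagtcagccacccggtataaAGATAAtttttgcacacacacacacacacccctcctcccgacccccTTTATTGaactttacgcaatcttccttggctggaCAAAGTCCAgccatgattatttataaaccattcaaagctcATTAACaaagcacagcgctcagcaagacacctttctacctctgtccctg
Slc6a20a, chr9:123678783-123679082, minus strand: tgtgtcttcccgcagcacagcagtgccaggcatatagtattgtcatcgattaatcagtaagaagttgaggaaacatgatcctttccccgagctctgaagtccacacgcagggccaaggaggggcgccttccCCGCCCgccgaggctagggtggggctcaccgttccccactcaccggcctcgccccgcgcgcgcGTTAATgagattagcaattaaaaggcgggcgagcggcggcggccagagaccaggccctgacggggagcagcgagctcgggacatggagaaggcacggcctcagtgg
Slc1a1, chr19:28834885-28835184, plus strand: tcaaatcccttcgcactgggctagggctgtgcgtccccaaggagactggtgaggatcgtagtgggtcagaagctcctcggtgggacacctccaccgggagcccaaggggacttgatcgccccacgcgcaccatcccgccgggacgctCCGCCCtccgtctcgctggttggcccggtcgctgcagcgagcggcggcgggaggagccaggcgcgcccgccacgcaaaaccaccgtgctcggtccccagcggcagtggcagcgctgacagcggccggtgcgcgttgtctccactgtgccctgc
The Slc3a1 window matched 4 of the 5 motifs, at -119 for GATA, -73 for CDX, -39 for HNF4 and 1 for HNF1, counted from the gene start to the first base of the match, and no matches overlapped. The printed window of its partner Slc7a9 matched GATA alone, its second listed window, chr7:35448929-35449228, matched none, and those of Slc15a1 and Slc6a19 matched none. Among the 32851 windows of the table, 7.1% held the HNF1 letters, 0.475% the HNF4 letters, 10.9% the CDX letters, 11.2% the GATA letters and 35.7% the GC box. Taking the first listed window of each gene, the members counted 3 of 10 for HNF1, 1 of 10 for HNF4, 1 of 10 for CDX, 2 of 10 for GATA and 4 of 10 for the GC box. For Slc7a7, listed windows 2 and 3 matched GATA and window 5 matched HNF1, where window 1 matched neither. The counts thus depend on the window taken, and the percentages cover all windows, not the first of each gene.

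Heavy chains and light chains of the basolateral side also followed each other. Slc3a2, the shared heavy chain, read 11.20, 11.56, 11.37, 11.43 and 11.50 on the knockouts, against 11.58, 11.35, 11.62, 11.61 and 11.67 on the controls. Controls 6, 8, 9 and 10 lay above every knockout and control 7 below 4 of them, and the log2 fold change was -0.15 (SE 0.10, limma adjusted p = 0.507). Over the 10 arrays it had r = 0.790 and rho = 0.794 with Slc7a7 (permutation p = 0.0058 and 0.00819, adjusted 0.00967 and 0.0137 over 5 partner pairs). With Slc7a8 it had r = 0.839 and rho = 0.818 (permutation p = 0.00208 and 0.00621, adjusted 0.0052 and 0.0137). Leaving out the 2 arrays farthest from the median gave r = 0.872 for Slc7a7 and r = 0.718 for Slc7a8. Of the 45 member pairs, 7 passed, among them pairs not listed as partners, such as Slc6a19 and Slc7a9 at r = 0.932. Whether such relations are particular to subunits was not tested.

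The other partner pairs did not pass. Cltrn, which encodes collectrin, the partner of the Slc6a19 product in kidney, read 3.21 to 4.08 in knockouts and 3.39 to 3.94 in controls, and had r = 0.193 and rho = 0.413 with Slc6a19 (permutation p = 0.597 and 0.238, adjusted 0.597 and 0.297). Slc9a3, the sodium-proton exchanger that helps to keep up the proton gradient for peptide uptake, had r = -0.426 and rho = -0.280 with Slc15a1 (permutation p = 0.216 and 0.430, adjusted 0.270 and 0.430). Without the farthest 2 arrays, r was 0.282 for Cltrn and -0.158 for Slc9a3.

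**Figure D4:**
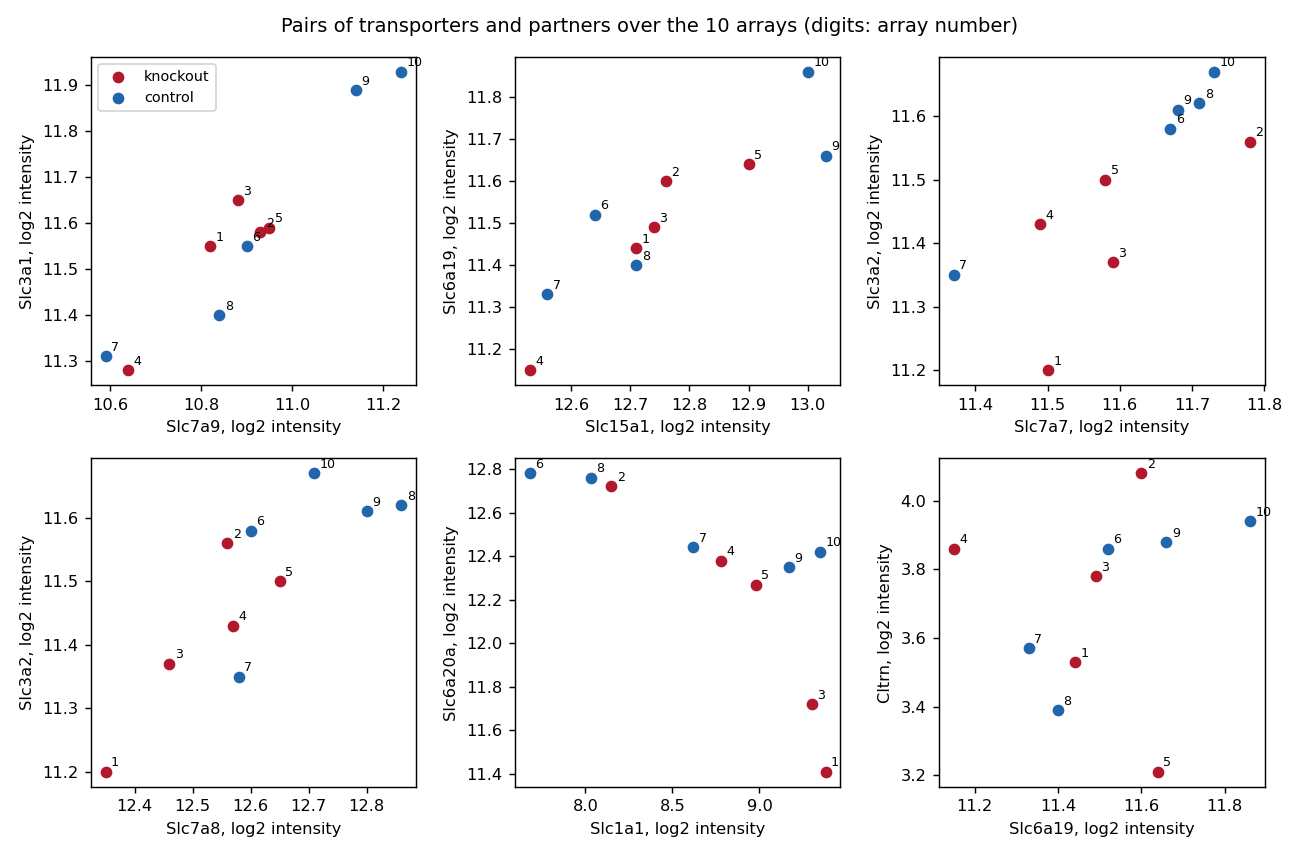
Log2 intensities of transporter and partner pairs over the 10 arrays, knockouts in red and controls in blue, with the array number beside each point. Slc7a9 against Slc3a1 lies along a rising line with controls 9 and 10 at its upper end, and Slc6a20a falls as Slc1a1 rises.

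Genes around the transporters gave no call either, where 0.0271% of all genes were called and the median log2 fold change over all genes was -0.01. Of 7 measured partners and gradient genes out of 10 listed, 0 passed in either direction, with a median log2 fold change of -0.08. The lowest was Slc3a2, and the highest Slc43a2, a basolateral uniporter of neutral amino acids, at -0.002 (SE 0.15). All 13 other peptide and amino acid transporters were measured, 0 passed, and the median was 0.09. Among 15 measured peptidases out of 16 listed, 0 passed and the median was -0.03. Anpep, a brush border aminopeptidase gene, had a mean of 13.48 ± 0.05 on knockout arrays, against 13.48 ± 0.12 on control arrays (SD, n = 5 each). The 9 measured transcription factors out of 11 listed gave 0 calls and a median of -0.02, with Hnf4a at 10.87 ± 0.12 on knockout arrays, against 10.81 ± 0.16 on control arrays (SD, n = 5 each).

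Slc1a4, a carrier of alanine, serine and cysteine that was singled out after its values were seen, came closest to a call. It read 6.87, 6.23, 7.12, 6.63 and 6.34 on the knockouts, against 5.95, 6.10, 5.99, 6.08 and 6.07 on the controls. Its groups did not overlap, as for 2.6% of all genes, and knockout minus control was 0.60 (SE 0.15, limma adjusted p = 0.146). Without knockout 2 the limma adjusted p was 0.0357, in a fit that called 452 of all genes, against 6 with all arrays. Beside it, the cell cycle score ran between -0.28 and 0.71 in knockouts and between -1.07 and -0.20 in controls, and its part in the Slc1a4 values was not tested.

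Slc36a4, a relative of Slc36a1 that carries proline and tryptophan, had the highest log2 fold change of the other transporters, at 0.75 (SE 0.22, limma adjusted p = 0.185). Its mean was 9.63 ± 0.35 on knockout arrays, against 8.87 ± 0.47 on control arrays (SD, n = 5 each), and 4 of 5 knockouts lay above every control. Slc36a4 had 2 probe sets, of which the one with the higher mean was used. Over the 27 alternatives its log2 fold change ran between 0.32 and 0.894. The lowest of that list was Slc6a20b at -0.46 (SE 0.33, limma adjusted p = 0.564). Slc7a15 was at -0.37 (SE 0.15, limma adjusted p = 0.314) and the cationic amino acid exchanger gene Slc7a6 at 0.31 (SE 0.14, limma adjusted p = 0.346). For the peptidases the extremes were Tmprss15, which encodes enteropeptidase, at -0.90 (SE 0.89, limma adjusted p = 0.694) and the leucine aminopeptidase gene Lap3 at 0.25 (SE 0.12, limma adjusted p = 0.383). Folh1, a folate hydrolase gene with the smallest adjusted p among the peptidases, was at -0.37 (SE 0.11, limma adjusted p = 0.193). It read 3.29 to 3.71 in knockouts and 3.71 to 4.09 in controls, all below the array medians. Whether its probe set rose above background was not tested. Tmprss15 read 4.24 to 6.55 in knockouts and 4.28 to 9.09 in controls, and it was highest on controls 6 and 8, the 2 arrays with the highest proximal score without Gip, 0.42 and 0.54. For the transcription factors the extremes were Maf at -0.29 (SE 0.10, limma adjusted p = 0.233) and Cdx1, a homeobox gene of the gut, at 0.14 (SE 0.15, limma adjusted p = 0.708).

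**Figure D5:**
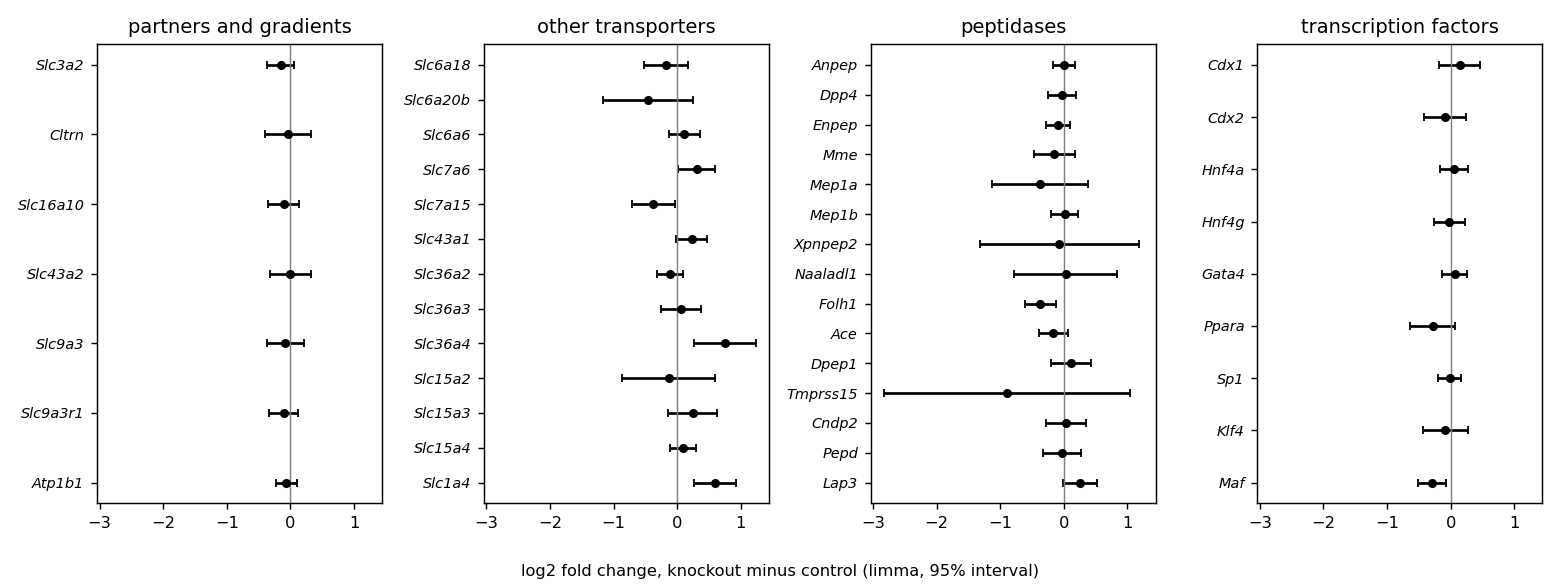
Log2 fold change, knockout minus control, with 95% intervals (limma) for partners and gradient genes, other peptide and amino acid transporters, peptidases and transcription factors. Slc1a4 at 0.60, Slc36a4 at 0.75 and Slc7a6 at 0.31 have intervals above 0. Folh1 at -0.37, Maf at -0.29 and Slc7a15 at -0.37 have intervals below 0, and Tmprss15 has the widest interval. Intervals that leave out 0 have an unadjusted limma p under 0.05, as did 13.9% of all genes.

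The genes most like each transporter were taken from 10327 other genes with a mean log2 intensity of at least 6, by Pearson r over the 10 arrays after centring each group on its mean. They were Rfk for Slc15a1 (r = 0.977), Cxadr for Slc6a19 (0.969), Sypl2 for Slc7a9 (0.972) and Usp35 for Slc3a1 (0.975). Slc7a7 was most like Slc37a3 (0.945) and Slc7a8 most like Lclat1 (0.953). For Slc6a20a it was Nr1i3 (0.969), for Slc1a1 Capn13 (0.976), for Slc36a1 the immunoglobulin gene Iglv1 (0.964) and for Slc6a14 Fam20a (0.937). The mean pattern of the 10 was closest to Tstd3 (0.983), Elmo3 (0.959) and Phlpp2 (0.954). These are the highest of many values over 10 arrays and are given as a description.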

How the data were processed

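Total RNA from each piece of jejunum was hybridised to 1 array. The authors made the deposited intensities with RMA, which corrects background, equalises arrays and summarises probes; the submitters' processing notes name Expression Console 1.4.1.46. Values were linear, between 1.88 and 15500.2, and log2 was taken first. Genome build and annotation are not given in the sources used here, and no detection values were used.

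Of 34472 probe sets, 23521 had a single gene symbol in the platform annotation. For genes with several, the probe set with the highest mean was kept, which left 22180 genes, all of them tested. Groups came from sample titles. The test was limma (version 3.58.1, R 4.3.3), two-sided, with Benjamini-Hochberg adjustment over all genes and 95% intervals. Correlations used 100000 permutations of the arrays (Python 3.11.15). The limma step was tested on simulated data. The number of arrays limits the precision. Alternatives changed scaling, filters, probe set choice, variance model, covariates and the arrays used.

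Members and lists were chosen with earlier results of these data known. Named by rule were the members, Pcyt1a, Slc3a2, Cltrn (listed under its older symbol Tmem27), any called gene and the highest and lowest of each list, plus the most alike genes. Slc9a3 came with the partner pairs. Slc1a4, Slc7a6, Slc7a15, Folh1, Anpep, Hnf4a and the marker genes were named after their values were seen, and relations of members with each other and with marker scores were likewise added then. Listed genes without a probe set of their own were not analysed here.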

Additional observations from a re-analysis of the deposited data

Results flagged for a closer look

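Within a group of 5 arrays, the lowest array stood apart from the other 4 by Dixon's ratio in 5 of the 48 groups checked, where chance flags about 1 in 20. Slc3a1 was 11.28 on knockout 4, with the other knockouts at 11.55 to 11.65, and Slc43a2 was 10.34 on knockout 4, with the others at 10.63 to 10.74. Slc7a6 was 5.90 on knockout 2, with the others at 6.39 to 6.58. Among controls, control 7 was lowest for Slc7a7, at 11.37 against 11.67 to 11.73 on the others, and for Slc3a2, at 11.35 against 11.58 to 11.67. Control 7 also had the highest smooth muscle score, 2.64, and the part of muscle in these values was not tested.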

How the results depend on the processing

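No paired analysis was possible because the knockouts are numbered 1 to 5 and the controls 6 to 10, so the groups share no replicate number. None of the 10 members was called under any of the 27 alternatives, 4 of which were chosen after seeing the data. The number of genes called among all, 6, was 2 with median centring, with a further quantile normalization, after dropping the 3 arrays with the most smooth muscle signal, and without controls 9 and 10. It was 10 with 16 added before log2, 147 with the enterocyte score as covariate, 368 with the Paneth score, 30 with the distal score, 30 with the proximal score, 69 without the 3 arrays lowest in Paneth genes, and 2 to 452 with 1 array left out. It was 452 without knockout 2, 3 without control 10, and 2 without knockout 1, knockout 3 or any of controls 6 to 9. Without knockout 2, 1 of the other transporters, Slc1a4, was called, against 0 in the other single-array fits. Members near 0 changed sign without controls 9 and 10: Slc15a1 was then at 0.091, Slc3a1 0.110, Slc6a19 0.047, Slc7a7 0.005 and Slc7a9 0.067. With 1 array left out, Slc15a1 ran between -0.117 and 0.000. Slc6a20a, Slc6a14, Slc7a8, Slc36a1 and Slc1a1 kept their sign throughout, with Slc1a1 between 0.063 and 0.808, Slc6a20a between -0.605 and -0.273, Slc36a1 between -0.458 and -0.239, Slc6a14 between -0.240 and -0.098 and Slc7a8 between -0.225 and -0.150. Slc43a2 was at 0.024 with median centring, 0.064 with the distal score, 0.196 without controls 9 and 10 and between -0.106 and 0.088 with 1 array left out. Cltrn was at 0.015 with quantile normalization, 0.002 without the smooth muscle arrays, 0.085 without controls 9 and 10 and between -0.133 and 0.084 with 1 array left out. Tmprss15 was at 0.354 without the arrays lowest in Paneth genes. The cause was not tested for any of these. Slc6a14 and Cltrn lay below the array medians, were left out by the filters at a mean log2 of 5 and 6, and so have 25 alternatives each.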
